A study of Mus musculus with 6 samples.

Results

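Interleukins are secreted signalling proteins by which leukocytes and tissue cells address each other, and their receptors are membrane proteins built from a ligand-specific chain and, in most families, a chain that several cytokines share. The genes described here are the interleukins, their antagonists and their receptor chains, chosen as every gene whose symbol starts with Il and a digit and which has a row of its own on the array. There were 76 such genes among 19938 genes measured. Of these, 39 encode ligands, antagonists or a secreted binding protein, 36 encode receptor chains or close relatives of them, and 1, Il1bos, is a long non-coding RNA from the strand opposite to Il1b.

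RNA came from whole hearts of 6 male FVB mice, an inbred strain, that had undergone transverse aortic constriction (TAC), an operation in which a tie around the aorta makes the left ventricle pump against raised pressure. The mice were 8 weeks old at the operation, and 14 weeks passed before their hearts were collected. The wild-type group had 3 mice, and the A2a-R transgenic group had 3 littermates that over-express the A2a receptor for adenosine, which signals through cyclic AMP, from a heart-specific inducible transgene. Its promoter and the agent that induces it were not stated in the labels used here. Both groups carry the aortic constriction, so every value below compares loaded hearts with loaded hearts. Each heart was measured on 1 Affymetrix Mouse Gene 1.0 ST array. The gene targeted by the transgene was not analysed here, so its level could not serve as a check of the labels.

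In the heart, interleukins of the IL-1 and IL-6 families are released by stressed muscle cells, fibroblasts and macrophages, and IL-4 and IL-13 act on macrophages and fibroblasts. IL-1 family cytokines signal through adaptor proteins to NF-kB, a transcription factor of inflammation. Most other interleukins signal through Janus kinases (JAK) and the STAT transcription factors they phosphorylate. The receptors of interleukins 2, 4, 7, 9, 15 and 21 share the common gamma chain, and most of those of the IL-6 family share gp130, the product of Il6st.

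Of the 76 genes, Il7r, which encodes the interleukin-7 receptor alpha chain of lymphocytes, rose in the transgenic hearts, and the other 75 did not pass the test. Il7r was 1.49-fold higher, with a log2 difference of 0.57 ± 0.07 (SE, n = 3 hearts per group; adjusted p = 0.00995). The adjusted p comes from limma with Benjamini-Hochberg correction over all tested rows, and a gene is said to rise or fall where it is below 0.05. Among all genes 0.993% passed this test (0.547% of all genes higher and 0.446% lower in transgenic hearts), and among the interleukin genes it was 1 of 76, or 1.32%. An unadjusted p below 0.05 was met by 13 interleukin genes, 7 higher and 6 lower, which is 17.1% against 14.6% of all genes (6.32% higher and 8.26% lower). At an adjusted p below 0.10, 2 interleukin genes were called (Il7r, higher, and Il13ra1, lower), against 2.22% of all genes (1.08% higher and 1.14% lower). At an unadjusted p below 0.01 with a 1.5-fold change, 0 interleukin genes and 0.647% of all genes were called. The shares of interleukin genes at the first 3 of these thresholds therefore lay near those of the array as a whole.

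The median log2 difference over the 76 genes was 0.03, with quartiles of -0.06 and 0.10, beside a median of -0.01 over all genes with quartiles of -0.08 and 0.06. The typical size of a difference, regardless of sign, was 0.0767 in the interleukin genes and 0.0733 in all genes. Of the 76 genes, 47 were on the higher side and 29 on the lower side, or 61.8% higher against 45.2% of all genes. This balance was not kept under every scaling of the arrays. It was gone after a further quantile normalization, with 37 higher and 39 lower (48.7% higher, against 48.9% of all genes) and a median of -0.0014. It remained with arrays centred on their medians, with 51 higher and 25 lower (67.1% higher, against 52.7% of all genes). In 73 of the 76 genes the 95% interval of the difference lay inside a 1.5-fold change either way, as it did in 96.8% of all genes. The intervals that reached beyond 1.5-fold were those of Il7r, Il6 and Il1bos, all on the higher side. No interleukin gene had a measured difference of 1.5-fold or more.

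**Figure D1:**
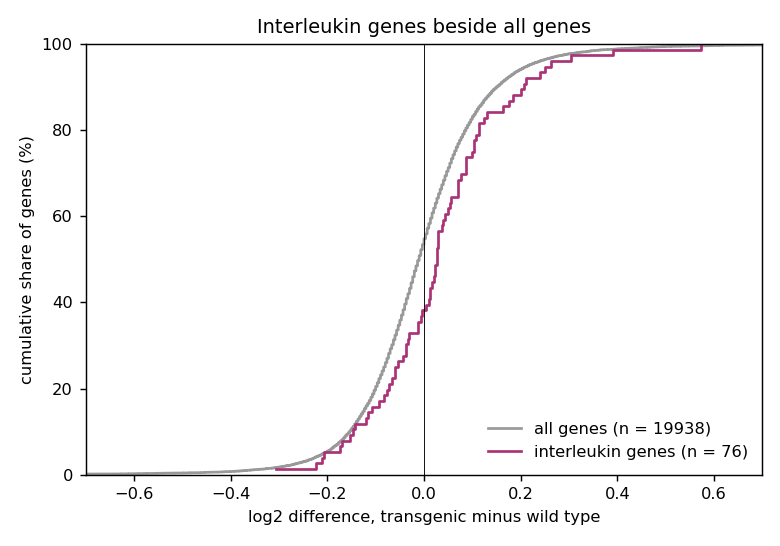
Cumulative share of genes (vertical axis, percent) at or below a given log2 difference, transgenic minus wild type (horizontal axis), for all 19938 genes and for the 76 interleukin genes. Through the middle of its range the interleukin curve lies to the right of the curve for all genes, with medians of 0.03 and -0.01, and its upper end is Il7r at 0.57.

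Interleukin genes were weakly measured as a class. Their mean log2 value over the 6 hearts ran from 3.29 to 11.22 with a median of 6.09, against 7.10 for all genes, and 51 of the 76 lay in the dimmest 40% of tested rows. A row's value depends on its probes as well as on the transcript, so these figures do not rank the genes by abundance. Il10rb, Il6st and Il13ra1, which encode receptor chains made by many cell types, had the highest values. In whole-heart RNA a lower value from fewer cells of a type cannot be told apart from less RNA per cell.

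Single hearts stood at the end of the range in many of these genes. Transgenic replicate 1 held the highest value of the 6 hearts, with no tie, in 20 of the 76 genes and the lowest in 4. Transgenic replicate 2 held the highest in 12 and the lowest in 20. Transgenic replicate 3 and wild-type replicate 1 each held the highest in 14 and the lowest in 12. Wild-type replicate 2 held 7 and 11, and wild-type replicate 3 held 5 and 15. The median deviation of the 76 genes from their own 6-heart means was 0.05 in transgenic replicate 1 and -0.05 in transgenic replicate 2, so these hearts of the same group stood at opposite ends.

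**Figure D2:**
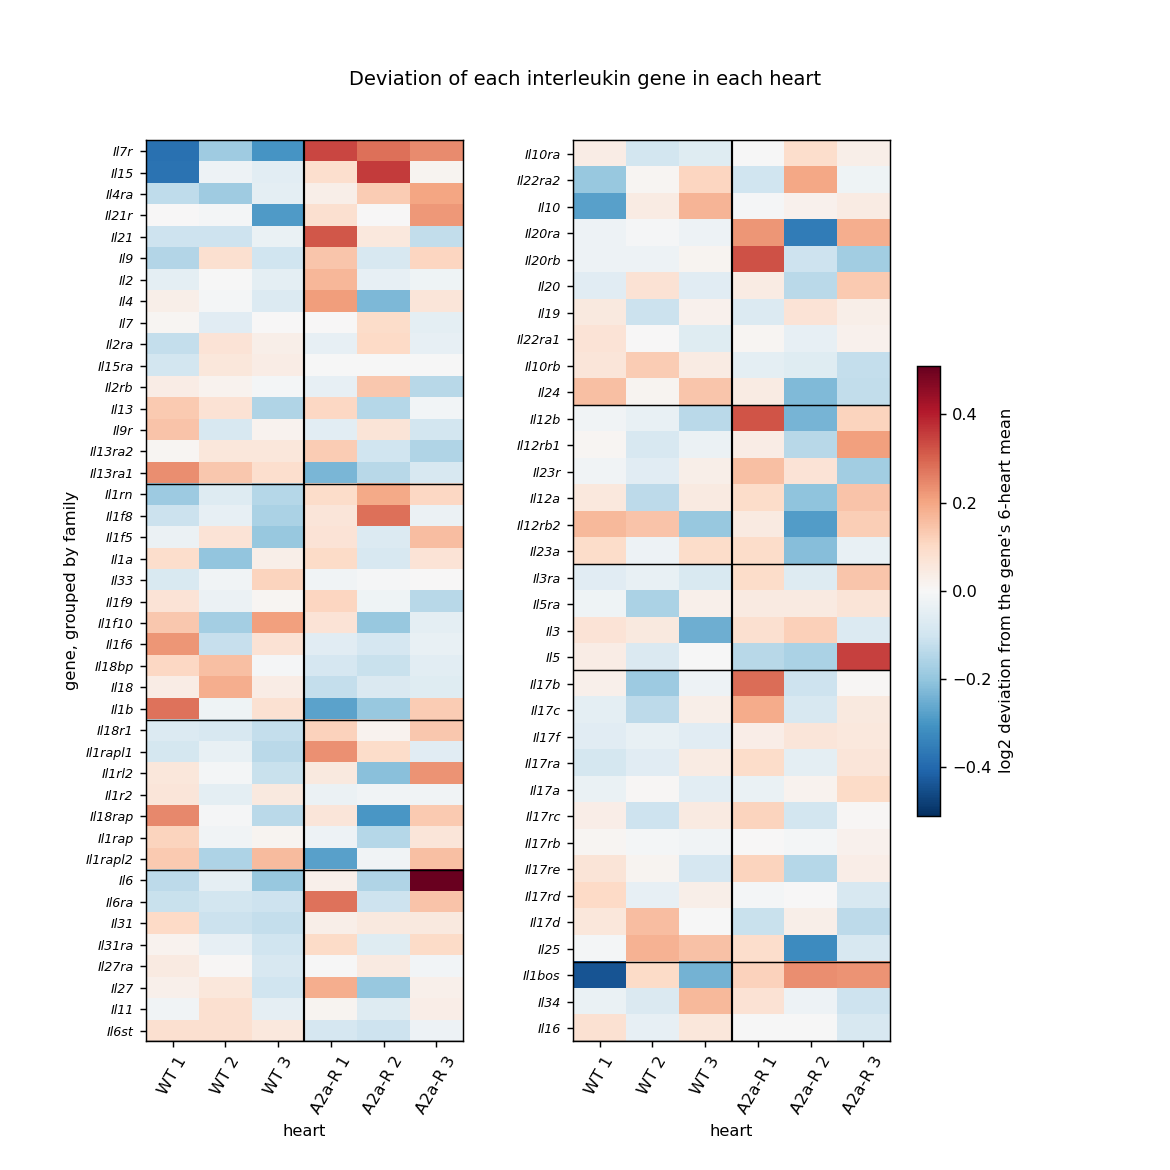
Log2 deviation of each of the 76 genes (vertical axis, grouped by family, black lines between families) from its own mean over the 6 hearts, in each heart (horizontal axis). Il7r in the first row is below its mean in all 3 wild-type hearts and above it in all 3 transgenic hearts, while Il6 stands out by transgenic replicate 3 and Il20ra, Il12b and Il25 are low in transgenic replicate 2.

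**Figure D3:**
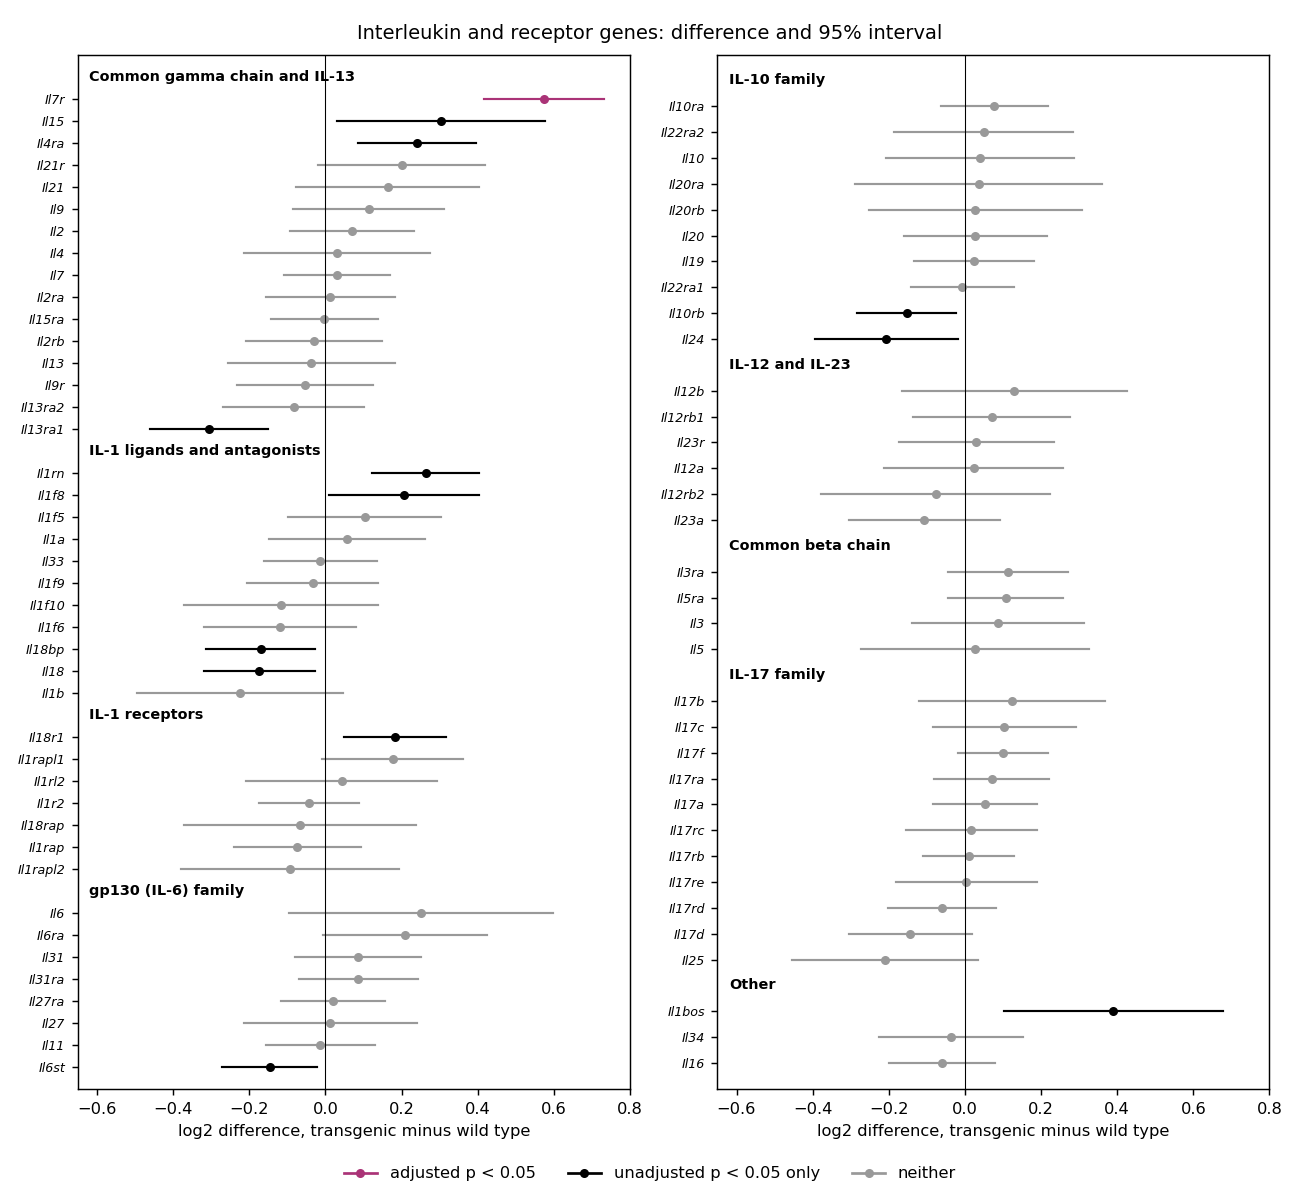
Log2 difference, transgenic minus wild type (points, horizontal axis), with its 95% interval from limma (lines) for each of the 76 genes, grouped by family. Il7r is the 1 gene with an adjusted p below 0.05; the 12 others drawn in black have an unadjusted p below 0.05 and did not pass.

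In the common gamma chain family, which carries the growth and survival signals of lymphocytes and is listed here with IL-13, 16 of 17 listed genes were measured. Il7r rose, the other 15 did not pass, and the median was 0.03. In this family 4 genes, 3 higher and 1 lower, had an unadjusted p below 0.05, or 25% against 14.6% of all genes. Il7r stood at log2 values of 4.96, 5.16 and 5.04 in the wild-type hearts and 5.68, 5.62 and 5.58 in the transgenic hearts. The groups were 0.42 apart at their nearest values, while the 3 hearts of a group spanned at most 0.20. Its 95% interval was 0.42 to 0.73, and it ranked as number 63 of all genes by p. Il7, its ligand, which stromal cells make, had a difference of 0.03 ± 0.06 (SE; limma adjusted p = 0.872), with an interval of -0.11 to 0.17. The second partner of the receptor alpha chain is Crlf2, the chain with which it forms the receptor for TSLP, an epithelial cytokine: its difference was 0.00 ± 0.08, and that of Tslp was -0.01 ± 0.06.

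With 1 heart left out, 80 to 122 of all genes passed, against 198 with every heart. The call of Il7r came near the threshold in these fits. Without wild-type replicate 3 the difference was 0.57 and the limma adjusted p was 0.05, just missing the threshold, and without each of the other 5 hearts it was between 0.0303 and 0.0380. With the replicate number as a block it was 0.0480. Il7r was in the dimmest 40% of rows, so it was not tested where those were left out.

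Il7r marks T cells and innate lymphoid cells, so lists of cell type markers were set beside it. Of 8 measured T cell markers 0 passed in limma, and 1 had an unadjusted p below 0.05, or 12.5% against 14.6% of all genes. Of the 8 markers 5 were higher and 3 lower. Their summed linear signal ran from 861 to 889 in wild-type hearts and from 847 to 942 in transgenic hearts. Cd3g, a chain of the T cell receptor complex, differed by 0.28 ± 0.11 (adjusted p = 0.277), Cd3e by 0.11 ± 0.10 and Cd8a by -0.03 ± 0.13. Cd28, a co-stimulatory receptor, was the 1 T cell marker whose groups did not overlap, and it lay lower in the transgenic hearts, at -0.18 ± 0.09 (adjusted p = 0.405). Of 7 markers of NK and innate lymphoid cells 0 passed, and 2 had an unadjusted p below 0.05, or 28.6% against 14.6% of all genes. Here 3 were higher and 4 lower, with sums from 1314 to 1515 in wild-type hearts and from 1292 to 1407 in transgenic hearts. Id2 and Rora, transcription factors made by many other cells too, hold most of this sum, and without them the other 5 markers summed to 154 to 162 in wild-type hearts and 160 to 169 in transgenic hearts. That division was made after the values were seen. All these sums overlapped between the groups. Of 14 macrophage and monocyte markers 13 were higher: Lgals3, which encodes the lectin galectin-3, rose by 0.61 ± 0.06 (adjusted p = 0.00423), the other 13 did not pass, and the median was 0.29. An unadjusted p below 0.05 was met by 9 of the 14, and 10 did not overlap, all on the higher side, or 64.3% and 71.4% beside 14.6% and 20.2% of all genes. Their sums did not overlap, at 5821 to 6553 in wild-type hearts and 7899 to 8630 in transgenic hearts. No marker can be at 0 on this scale, and the part of any of these cells in the level of Il7r was not tested. Of 5 B cell, 6 dendritic cell, 6 neutrophil, 6 mast cell, 5 endothelial and 5 fibroblast markers 0 passed (2, 1, 0, 0, 1 and 0 at an unadjusted p below 0.05). In the same order these shares were 40%, 16.7%, 0%, 0%, 20% and 0%, against 14.6% of all genes. The 7 cardiomyocyte markers, by which the tissue was checked, averaged log2 values of 13.40 to 13.50 over the hearts, and 0 passed. Of these markers 1, or 14.3%, had an unadjusted p below 0.05.

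The region in front of Il7r is shown because it is the 1 gene that passed. The window of 250 bases before to 50 after the start, from RefSeq on build GRCm38.p6, minus strand, at chr15:9529827-9530126, reads 5′ to 3′ with capitals marking the match to TTCNNNGAA, the element bound by STAT proteins.
Il7r: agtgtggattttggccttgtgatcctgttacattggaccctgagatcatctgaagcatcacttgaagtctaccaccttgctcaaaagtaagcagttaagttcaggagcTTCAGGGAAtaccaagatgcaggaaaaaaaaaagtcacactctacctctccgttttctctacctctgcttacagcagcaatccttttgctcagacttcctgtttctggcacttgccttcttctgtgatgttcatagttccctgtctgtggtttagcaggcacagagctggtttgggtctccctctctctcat
The match starts 142 bases before the start of the gene. The table held windows for 59 of the 76 genes, and 11 of these genes had the element in at least 1 window, or 18.6%, against 9.55% of all 27025 genes in the table. They were Il12rb2, Il17d, Il18r1, Il19, Il1bos, Il1f5, Il1f9, Il1r2, Il31ra, Il4 and Il7r. The full cyclic AMP response element, TGACGTCA, was in 0 of the 59 and in 2.03% of all genes. Both elements read the same on either strand, and a match or its absence describes the letters of these windows and nothing more.

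A receptor that IL-4 and IL-13 share pairs Il4ra with Il13ra1. Il13ra1 was at 10.53, 10.43 and 10.38 in wild-type hearts and at 10.06, 10.15 and 10.21 in transgenic hearts. Every transgenic value lay below every wild-type value, and the difference was -0.31 ± 0.07 (SE; limma adjusted p = 0.0924). Il13ra1 did not pass, and it passed in 2 of 15 alternative fits. With the dimmest 40% of rows left out the adjusted p was 0.0353, and with a trended and robust variance prior it was 0.0177. Those 2 settings also called more of all genes, 3.90% and 2.70%, against 0.993%. With 1 heart left out the adjusted p of Il13ra1 was 0.152 to 0.239, and with the replicate block it was 0.192. Il4ra was at 8.16, 8.11 and 8.24 in wild-type and at 8.32, 8.42 and 8.49 in transgenic hearts, so here every transgenic value lay above. Its difference was 0.24 ± 0.07 (adjusted p = 0.162).

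The level of Il4ra relative to Il13ra1 within each heart, set to a mean of 0 over the 6 hearts, was -0.37, -0.32 and -0.14 in wild-type and 0.26, 0.27 and 0.28 in transgenic hearts. On this relative level the transgenic hearts spanned 0.02 and the wild-type hearts 0.23. In other pairs formed in the same way the transgenic hearts spanned 0.08 (Il18bp relative to Il18) to 0.41 (Il1rn relative to Il1b). Groups that did not overlap were not particular to Il4ra with Il13ra1. The same held for Il1rn with Il1b, Il18r1 with Il18, Il15 with Il15ra, Il6ra with Il6st and Il10ra with Il10rb. The groups overlapped for Il18bp with Il18 and for Il1bos with Il1b. The pair of Il4ra and Il13ra1 was picked after its values were seen, so its shift of 0.55 is given without a test. Of the cytokines that bind the pair, Il4 differed by 0.03 ± 0.11 and Il13 by -0.04 ± 0.10. Il13ra2, which binds IL-13 without passing on the signal of the pair, differed by -0.08 ± 0.08.

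Il15 encodes a cytokine that keeps NK and memory T cells alive and is presented by the receptor chain Il15ra on neighbouring cells. Il15 was at 7.77, 8.12 and 8.09 in wild-type and 8.23, 8.50 and 8.16 in transgenic hearts. The groups were apart by 0.04 at their nearest values, and the difference was 0.30 ± 0.12 (limma adjusted p = 0.294). It was 0.19 without wild-type replicate 1 and 0.20 without transgenic replicate 2. Il15ra was at 8.47, 8.62 and 8.60 in wild-type and at 8.56 in each transgenic heart, with a difference of -0.00333 and an interval of -0.14 to 0.14. Its sign turned under both further scalings of the arrays. The remaining genes of the family, Il2, Il2ra, Il2rb, Il9, Il9r, Il21 and Il21r, differed by between -0.05 (Il9r) and 0.20 (Il21r).

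**Figure D4:**
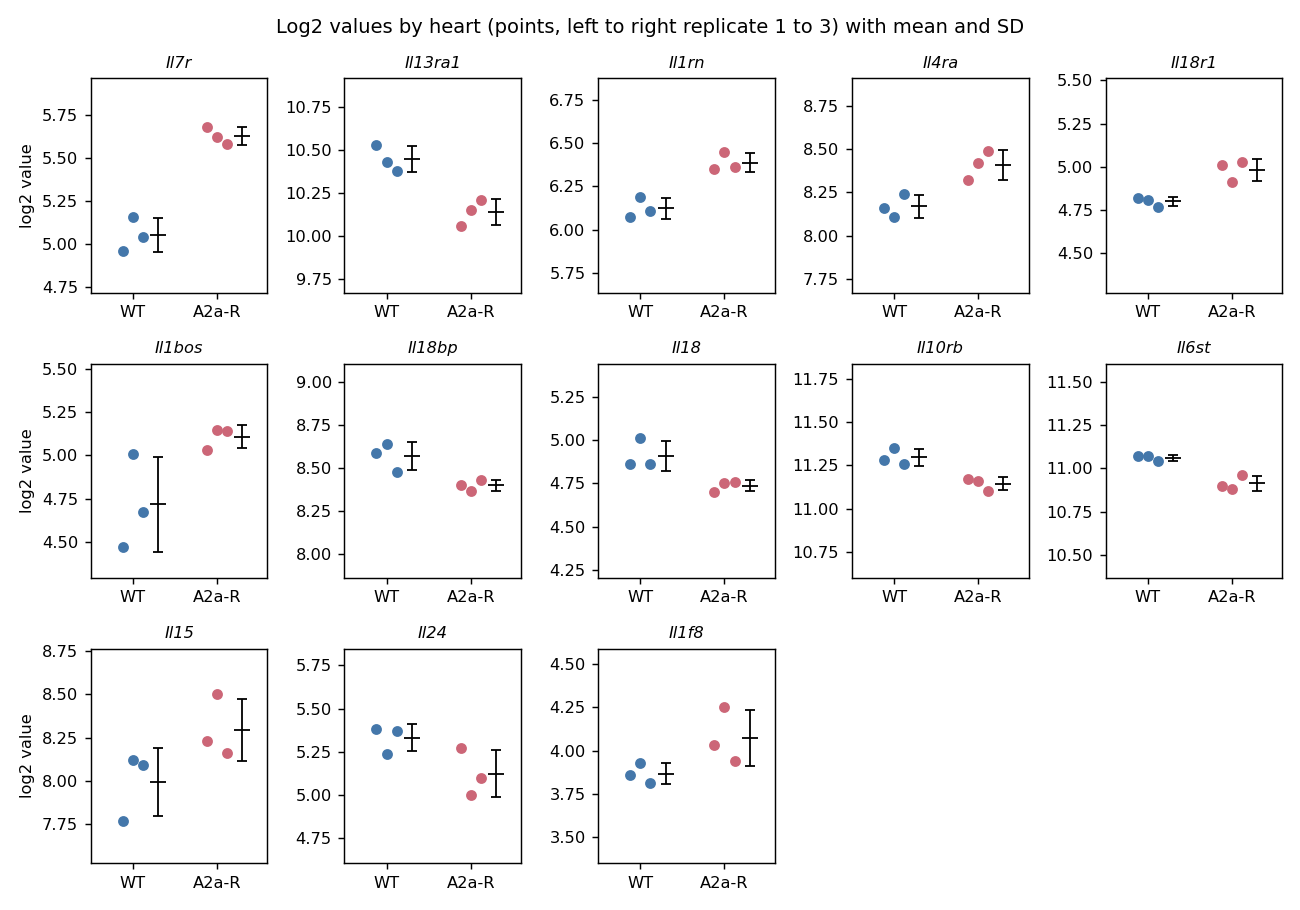
Log2 values (vertical axes, all of the same span) by heart in wild-type (blue) and A2a-R transgenic (red) groups for the 13 genes with an unadjusted p below 0.05, in order of p. Black bars give the mean and SD of each group of 3 hearts; the groups do not overlap in 12 of the 13 panels, Il24 being the exception.

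The IL-1 family is the main inflammatory branch, with agonists, a receptor antagonist and decoys. Of its 11 measured ligands and antagonists 0 passed in limma. An unadjusted p below 0.05 was met by 4, or 36.4% against 14.6% of all genes. On the higher side were 4 and on the lower side 7, or 36.4% higher against 45.2% of all genes, with a median of -0.03. This balance is given for the deposited scaling of the arrays only. Il1rn, which encodes the antagonist that blocks the IL-1 receptor, was at 6.07, 6.19 and 6.11 in wild-type and 6.35, 6.45 and 6.36 in transgenic hearts. Its groups did not overlap, and the difference was 0.26 ± 0.06 (SE; adjusted p = 0.105).

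Il1b, the agonist that Il1rn opposes, was at 6.60, 6.30 and 6.40 in wild-type and 6.05, 6.13 and 6.45 in transgenic hearts. Here transgenic replicate 3 lay among the wild-type hearts, and the difference was -0.22 ± 0.12 (limma adjusted p = 0.433). It was -0.34 without that heart, and -0.14 without wild-type replicate 1 or without transgenic replicate 1. The other agonist, Il1a, differed by 0.06 ± 0.09. The level of Il1rn relative to Il1b, centred on the 6 hearts, was -0.46, -0.04 and -0.22 in wild-type and 0.37, 0.39 and -0.02 in transgenic hearts. This pair too was picked after its values were seen, so it is given without a test.

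Il1bos, transcribed from the strand opposite to Il1b, was at 4.47, 5.01 and 4.67 in wild-type and 5.03, 5.15 and 5.14 in transgenic hearts. The wild-type hearts spanned 0.54, more than in any other interleukin gene of that group, and the groups were 0.02 apart at their nearest values. The difference was 0.39 ± 0.12 (limma adjusted p = 0.210), the second largest on the higher side after Il7r. With wild-type replicate 1 left out it was 0.27, and with wild-type replicate 2 left out 0.54.

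Il18, which encodes an agonist that is cut to its active form by caspase-1, and Il18bp, a secreted protein that captures it, both lay lower in the transgenic hearts. Il18 was at 4.86, 5.01 and 4.86 in wild-type and 4.70, 4.75 and 4.76 in transgenic hearts. Il18bp was at 8.59, 8.64 and 8.48 in wild-type and 8.40, 8.37 and 8.43 in transgenic hearts. Their differences were nearly equal, -0.17 ± 0.06 each, neither passed (limma adjusted p = 0.266 for both), and neither gene's groups overlapped. Il18r1, the receptor chain that binds IL-18, was at 4.82, 4.81 and 4.77 in wild-type and 5.01, 4.91 and 5.03 in transgenic hearts, a difference of 0.18 ± 0.06 (adjusted p = 0.208). Its co-receptor Il18rap, which lies next to it on chromosome 1, differed by -0.07 ± 0.13.

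Il33, an alarm cytokine that fibroblasts and endothelial cells release, was at 7.43, 7.49 and 7.62 in wild-type and 7.49, 7.50 and 7.51 in transgenic hearts. Its difference was -0.01 ± 0.06, with a 95% interval of -0.16 to 0.14, and its sign turned under both further scalings of the arrays. The IL-36 branch, named by older symbols in these files, had 4 genes besides Il1f10. Il1f8 (IL-36 beta) was at 3.86, 3.93 and 3.81 in wild-type and 4.03, 4.25 and 3.94 in transgenic hearts, a difference of 0.21 ± 0.09 (limma adjusted p = 0.319) that was 0.12 without transgenic replicate 2. The others of the branch and Il1f10 lay between -0.12 (Il1f6) and 0.10 (Il1f5).

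Of 7 measured IL-1 family receptor chains 0 passed in limma, and the median was -0.04. Il18r1 alone had an unadjusted p below 0.05, which is 14.3% of the list against 14.6% of all genes. Il1rap, the co-receptor that IL-1 and IL-33 receptors share, differed by -0.07 ± 0.07, and Il1r2, the decoy receptor of IL-1, by -0.04 ± 0.06. Il1rapl1, a relative found at synapses, differed by 0.18 ± 0.08 (adjusted p = 0.360). The signalling IL-1 receptor Il1r1 and the IL-33 receptor Il1rl1 were not analysed here.

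In the IL-6 family, most of whose members signal through gp130 (IL-31 instead uses Il31ra with Osmr), 8 of 10 listed genes were measured. Of these 0 passed in limma, and 1 had an unadjusted p below 0.05, or 12.5% against 14.6% of all genes. Il6st, which encodes gp130 itself, was at 11.07, 11.07 and 11.04 in wild-type and 10.90, 10.88 and 10.96 in transgenic hearts. The groups did not overlap, and the difference was small, -0.15 ± 0.05 (SE; adjusted p = 0.269). Il6ra, the chain that binds IL-6, was at 7.61, 7.63 and 7.62 in wild-type and 8.00, 7.62 and 7.87 in transgenic hearts. The wild-type hearts agreed to within 0.02, transgenic replicate 2 stood with them, and the difference of 0.21 ± 0.09 did not pass (adjusted p = 0.349). It was 0.125 without transgenic replicate 1 and 0.315 without transgenic replicate 2.

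Il6, the cytokine, had the lowest mean value of the 76 genes. It was at 3.16, 3.25 and 3.10 in wild-type and 3.32, 3.14 and 3.80 in transgenic hearts. The difference of 0.25 ± 0.15 (limma adjusted p = 0.492) rested on transgenic replicate 3, without which it was 0.06, and it was 0.39 without transgenic replicate 2. Il11, a cytokine that acts on fibroblasts, was at 6.05, 6.15 and 6.02 in wild-type and 6.08, 6.0 and 6.10 in transgenic hearts, with a difference of -0.01 ± 0.06 and an interval of -0.16 to 0.13. Il27, Il27ra, Il31 and Il31ra lay between 0.01 and 0.09. The IL-11 receptor genes were not analysed here.

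In the IL-10 family, which includes the cytokine that restrains macrophages, 10 of 14 listed genes were measured and 0 passed in limma. With 2 at an unadjusted p below 0.05, the share was 20% against 14.6% of all genes. Il10rb, a receptor chain for IL-10, IL-22 and the lambda interferons, was at 11.28, 11.35 and 11.26 in wild-type and 11.17, 11.16 and 11.10 in transgenic hearts, a difference of -0.15 ± 0.06 (SE; adjusted p = 0.269) with no overlap. Il10ra, the chain specific to IL-10 and made by leukocytes, was at 7.17, 7.04 and 7.07 in wild-type and 7.13, 7.22 and 7.16 in transgenic hearts, and differed by 0.08 ± 0.06.

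Il10 itself was at 4.04, 4.36 and 4.49 in wild-type and 4.31, 4.34 and 4.36 in transgenic hearts, a difference of 0.04 ± 0.11 whose sign turned after quantile normalization and with array weights. Il24 was at 5.38, 5.24 and 5.37 in wild-type and 5.27, 5.0 and 5.10 in transgenic hearts. Transgenic replicate 1 lay within the wild-type range, and the difference was -0.21 ± 0.08 (limma adjusted p = 0.297). The other 6 members, Il19, Il20, Il20ra, Il20rb, Il22ra1 and Il22ra2, lay between -0.00667 and 0.05 on the row that stood for each gene. The lowest of these was Il22ra1, whose dimmer row differed by -0.18 ± 0.08 (limma adjusted p = 0.363).

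No gene of the IL-12 and IL-23 family, which directs T helper cells, passed in limma, and 0 of its 6 genes had an unadjusted p below 0.05. Their differences ran from -0.11 (Il23a) to 0.13 (Il12b). The 4 genes of the common beta chain family, Il3, Il3ra, Il5 and Il5ra, which drive eosinophils and basophils, were all on the higher side at 0.03 to 0.11. Over all genes 45.2% were on that side, and 0 of the 4 passed or had an unadjusted p below 0.05. Their side is given for the deposited scaling of the arrays only, and Il3, Il5 and Il5ra lay in the dimmest 40% of rows.

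In the IL-17 family, made by T cells and epithelia, 11 of 12 listed genes were measured, and 0 passed in limma or had an unadjusted p below 0.05. Il17ra, the receptor chain shared by the family, was at 7.06, 7.09 and 7.19 in wild-type and 7.24, 7.10 and 7.21 in transgenic hearts, a difference of 0.07 ± 0.07. Il17d differed by -0.14 ± 0.07 and Il25 by -0.21 ± 0.11. Il17f was at 6.35, 6.37 and 6.35 in wild-type and 6.44, 6.47 and 6.46 in transgenic hearts. Its hearts agreed to within 0.03 in each group, yet its difference of 0.10 ± 0.05 did not pass (adjusted p = 0.425). The limma test sets a difference against a spread drawn partly from all rows. Il17rd, a membrane protein that dampens growth factor signalling, differed by -0.06 ± 0.06 on its brighter row and by -0.14 ± 0.10 on its dimmer one.

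Of the genes outside these families, Il34, a second ligand of the macrophage growth factor receptor, was at 7.12, 7.08 and 7.32 in wild-type and 7.23, 7.13 and 7.05 in transgenic hearts. Its difference was -0.04 ± 0.08 (SE), with an interval of -0.22 to 0.15. Il16, which attracts CD4-bearing cells, was at 7.42, 7.30 and 7.40 in wild-type and 7.34, 7.34 and 7.26 in transgenic hearts, a difference of -0.06 ± 0.06.

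Across families, the ranges of the 2 groups were separate, with no shared values, in 14 of the 76 genes, 9 higher and 5 lower. That is 18.4%, against 20.2% of all genes (7.79% of all genes higher and 12.4% lower). The 14 were 12 of the 13 genes with an unadjusted p below 0.05, together with Il17f and Il5ra. Among them 7 encode receptor chains: Il7r, Il4ra, Il18r1 and Il5ra lay higher and Il13ra1, Il10rb and Il6st lower in the transgenic hearts. Of the 6 ligands, antagonists and binding proteins, Il1rn, Il15, Il1f8 and Il17f lay higher and Il18 and Il18bp lower. The summed macrophage markers, given above with Il7r, were separate between the groups as well, and their part in these genes was not tested. With 1 heart left out, so that 3 hearts face 2, both shares were larger: the count was 29 (38.2%, against 31.5% of all genes) without transgenic replicate 2 and 23 (30.3%, against 27.5%) without wild-type replicate 2. Without each of the other 4 hearts it was 17 to 21, or 22.4% to 27.6%, against 28.6% to 31.6% of all genes.

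Many interleukin genes sit side by side on the chromosomes. By the order of genes in RefSeq, 33 of the 76 lay next to another of them with no other protein-coding gene between, in 13 groups. In 5 of the groups all members lay on the same side, and in 8 they lay on both sides. Sides were read in the deposited scaling of the arrays only, and no share for other neighbouring genes was computed. Some shared sides were slight, as for Il17re at 0.00333 and Il17rc at 0.0167. The longest, Il1f8, Il1f9, Il1f6, Il1f5, Il1f10 and Il1rn on chromosome 2, ran from -0.12 to 0.26 with 3 genes on each side. Il4ra and Il21r on chromosome 7 lay at 0.24 and 0.20. Il24, Il20, Il19 and Il10 on chromosome 1 ran from -0.21 to 0.04.

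The proteins that carry interleukin signals inside the cell were examined from 2 lists of genes outside the interleukin names. Of 36 measured genes for JAK kinases, STAT factors, their SOCS inhibitors and relatives of the gp130 cytokines, 0 passed in limma, and the median was 0.00667. An unadjusted p below 0.05 was met by 7 (4 higher, 3 lower), or 19.4% against 14.6% of all genes. Csf2rb2, the beta chain of the mouse IL-3 receptor, was at 6.84, 6.86 and 6.80 in wild-type and 7.31, 7.10 and 7.18 in transgenic hearts. Its difference was 0.36 ± 0.07 (SE; adjusted p = 0.0597), and it passed at 0.05 under 5 of the alternative settings. Csf2rb2 and Csf2rb are near-identical copies, so their rows may share signal; Csf2rb differed by 0.19 ± 0.08.

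Osmr, the oncostatin M receptor chain that pairs with gp130, was at 9.50, 9.38 and 9.42 in wild-type and 9.63, 9.65 and 9.68 in transgenic hearts, a difference of 0.22 ± 0.06 (limma adjusted p = 0.142). Socs2, an inhibitor of cytokine signalling, differed by -0.25 ± 0.07 (adjusted p = 0.173). Csf1, the macrophage growth factor that shares its receptor with Il34, differed by -0.25 ± 0.08 (adjusted p = 0.193). Stat3, the main factor activated through gp130, differed by 0.16 ± 0.06, its inhibitor Socs3 by 0.10 ± 0.13, and Stat6, which serves Il4ra, by 0.01 ± 0.06.

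Of 27 measured genes that process IL-1 and IL-18 or signal behind their receptors, 0 passed in limma. An unadjusted p below 0.05 was met by 4 (2 higher, 2 lower), or 14.8% against 14.6% of all genes. The list had 8 genes higher and 19 lower, or 29.6% higher against 45.2% of all genes. Its median was -0.03, beside -0.01 over all genes, and this balance is given for 1 scaling of the arrays only. Casp4, an inflammatory caspase, differed by 0.22 ± 0.07 (SE; adjusted p = 0.207), and Irak3, which restrains IL-1 receptor signalling, by 0.19 ± 0.07 (adjusted p = 0.269). Map3k7, a kinase of the pathway, was at -0.14 ± 0.05 and Rela, the main NF-kB subunit, at -0.14 ± 0.06. Casp1, which cuts both cytokines to their active form, differed by -0.04 ± 0.13, and Nlrp3, the sensor that activates it, by -0.06 ± 0.13.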

How the data were processed

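The deposited value table holds 28853 rows for 6 arrays on the log2 scale, made by the authors with RMA and Partek, per the submitters' processing notes; no version, setting or genome build is given in the sources used. RMA as usually run quantile-normalises arrays and can compress differences of dim rows. Genes were named from the platform annotation: 21789 rows had exactly 1 symbol and were tested, 1621 had several and 5443 none. The row of highest mean over the 6 arrays stood for a gene, and 3 interleukin genes (Il17rd, Il20rb, Il22ra1) had several rows. Another 3 rows matched the name rule but had several symbols (Il22 and Il4i1) and were left out. RefSeq tables gave gene order and promoter windows.

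Each row was fitted with limma 3.58.1 in R 4.3.3 (lmFit, eBayes), transgenic minus wild type with no covariate, with Benjamini-Hochberg adjustment over the tested rows. The code was tested on simulated data. The mice are separate animals, so the p-values measure spread between animals; the number of arrays limits the precision (median SE 0.0731). Same-numbered hearts did not deviate together (r from -0.10 to 0.16 across rows), so no pairing was used. Members and lists were chosen with earlier results of these data known. Full values are given for interleukin genes with an adjusted or unadjusted p below 0.05, a set known from the loaded heart and the 3 highest members. Up to 4 genes of each signalling list were named by smallest p, and of these Csf2rb2 and Osmr have full values. Il17f, Il5ra and further genes were named after their values were seen.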

Additional observations from a re-analysis of the deposited data

How the results depend on the processing

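Il7r kept its direction under all 14 alternatives that tested it, with log2 differences of 0.53 to 0.63. The number of interleukin genes called was 2 (Il7r and Il13ra1) with a trended and robust variance prior and at an adjusted p below 0.10, and 0 at an unadjusted p below 0.01 with a 1.5-fold change, since Il7r stands at 1.49-fold. Without the dimmest 40% of rows 25 members were left and 1 was called (Il13ra1), 7 had an unadjusted p below 0.05 (28.0%, against 20.4% of the 11837 genes kept) and 6 did not overlap (24.0%, against 25.4%). Leaving out 1 heart gave 0 to 1 called and 17 to 29 not overlapping (22.4% to 38.2%, against 27.5% to 31.6% of all genes in those fits). The replicate block left 1 call, Il7r, with 95 of all genes called against 198, and changed no other call of the named genes. All genes called numbered 80 to 122 without 1 heart, 462 without the dimmest 40% and 539 with the trended and robust prior. In the JAK and STAT list 1 gene, Csf2rb2, was called after quantile normalization, median centring, the dim filter and array weights and at an adjusted p below 0.10, and 2 (with Osmr) under the trended and robust prior. Small differences reversed: Il10 to -0.01361 (quantile) and -0.002214 (array weights), Il15ra to 0.04083 and 0.01667, Il33 to 0.02361 and 0.006667 (quantile and centring), and Il11 to 0.006667 (centring). Leaving out 1 heart gave ranges of -0.0883 to 0.137 for Il10, -0.05 to 0.025 for Il15ra, -0.055 to 0.04 for Il33, -0.04 to 0.025 for Il11 and -0.0833 to 0.0367 for Il34. The causes were not tested.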
